A study of Salmo trutta with 24 samples.

Results

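Livers of male brown trout (*Salmo trutta*) were examined for 66 genes of lipoprotein and lipid transport, out of 11587 annotated genes in the deposited tables. The genes were chosen by the words of their annotation, in 10 role groups: 17 apolipoproteins, 11 lipoprotein receptors and their partners, 2 lipoprotein lipases, 2 microsomal triglyceride transfer proteins, 1 phospholipid transfer protein, 5 glycolipid transfer proteins, 6 fatty acid binding proteins, 11 oxysterol binding proteins, and 7 and 4 members of the ABC transporter sub-families A and G. They were represented by 248 of 66359 assembled contigs (transcript sequences built from the reads without a genome), and 221 of these 248 contigs were listed in the tables of all 6 exposures. Counts of the contigs of a gene were summed. Where 2 genes carried the same annotation, the last 3 digits of the Ensembl identifier are part of the name, as in *gltpd2-889* (ENSDARG00000067889) and *gltpd2-218* (ENSDARG00000054218).

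The fish were adult, sexually mature males in water with 17β-estradiol (E2), the main estrogen of vertebrates, at measured concentrations of 1.9, 18.1 or 34.4 ng/l, or with the herbicide linuron at 1.7, 15.3 or 225.9 µg/l. There were 3 fish in each of these 6 groups and 6 fish in water controls. The exposure lasted 4 days by the characteristics of the samples, and the study's text also gives 4 days for the E2 exposure. The protocol text of the samples names 14 days. The study ran each E2 concentration in 1 tank and the controls in 2 tanks, so that tank and concentration cannot be told apart. Its text does not give the tanks of the linuron groups. The p-values measure the spread between fish only. The same 6 controls entered all 6 comparisons.

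The liver assembles very low density lipoprotein around apolipoprotein B, which the microsomal triglyceride transfer protein loads with lipid in the endoplasmic reticulum, and secretes it into the blood. Lipoprotein lipase at the vessel wall frees its fatty acids, receptors of the low density lipoprotein receptor family take up the remnants, and apolipoprotein A-I with ABCA1 forms high density lipoprotein. In egg-laying females, estrogen makes the liver produce vitellogenin, a lipid-carrying yolk precursor of the same large lipid transfer protein family as apolipoprotein B and the microsomal triglyceride transfer protein. The choice by words also took proteins named after lipoproteins whose known role lies elsewhere: the apolipoprotein O family of the mitochondrial inner membrane, the Wnt co-receptors *lrp5* and *lrp6*, and the drug exporter relatives *abcg2b* and *abcg2c*.

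Total counts per fish ran from 3894392 to 10736246, with a median of 7551790, and the 66 genes took 5.45 to 12.4% of them. The label of the 34.4 ng E2/l group was checked with genes of estrogen action. There *esr1* (estrogen receptor 1) and 5 vitellogenin genes were all higher, by 4.69 to 13.33 on the log2 scale. At 18.1 and 1.9 ng E2/l and at 225.9 and 15.3 µg linuron/l, only *esr1* of these genes was listed. The vitellogenin genes thus entered through the fish at 34.4 ng E2/l and could only come out higher. This leaves *esr1* (4.69) as the check. The labels of the other groups were not checked in this way. Hepatocyte markers were abundant in every fish. At 34.4 ng E2/l, 1 of 7 hepatocyte markers had a positive log2 fold change, with a median of -0.37. Of the 7, 3 had an unadjusted p below 0.05 and 0 passed, both by edgeR's quasi-likelihood test. Of 24 tested markers of other cell types, 0 passed edgeR's quasi-likelihood test at 34.4 ng E2/l, beside 2.75% of annotated genes. An unadjusted p below 0.05 was found for 6 of the 24, beside 17.2% of annotated genes. Log2 fold changes were positive for 0 of 4 stellate and fibroblast, 0 of 3 endothelium and 0 of 1 lymphocyte markers. They were positive for 1 of 5 macrophage, 2 of 3 cholangiocyte and 1 of 4 exocrine pancreas markers. Of 2 erythrocyte and 2 intestine markers, 1 each was positive. Shifts in cell composition were not tested.

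At 34.4 ng E2/l, 6 of the 64 lipid transport genes listed in that table differed from control, 4 higher and 2 lower. The genes that rose were *gltpd2-889* (a glycolipid transfer protein relative), *fabp3* (a cytosolic fatty acid carrier), *lrpap1* (a chaperone of lipoprotein receptors) and *apof* (apolipoprotein F). The genes that fell were *apobb* (1 of the apolipoprotein B genes) and *abcg2b* (an ABC exporter). Among all 11053 annotated genes tested in the same fit, 2.75% passed, 1.84% higher and 0.914% lower. P-values came from the quasi-likelihood test of edgeR, adjusted by Benjamini-Hochberg over the 35993 features of the table, at a threshold of 0.05. The median log2 fold change was 0.04 for the 64 genes and 0.08 for all annotated genes, and 17 of the 64 had an unadjusted p below 0.05, beside 17.2% of all annotated genes. In 12 of the 64 genes the exposed fish and the controls did not overlap, beside 12.2% of annotated genes. Of the 6 genes, *gltpd2-889*, *fabp3* and *abcg2b* passed under all 19 alternative settings, *lrpap1* under 18, *apobb* under 12 and *apof* under 11. These tallies include the alternative filters, which could not change a value. They also include the test of single contigs, which nearly repeats the main test for *fabp3*, *lrpap1* and *apof*, each with a single contig. That test called a gene where at least 1 of its contigs passed in the direction of the sum. Leaving out exposed fish 3 lowered the count from 6 to 3, and DESeq2 raised it to 10. Calls among all annotated genes moved too, from 304 to 97 without that fish and to 667 by DESeq2.

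**Figure D1:**
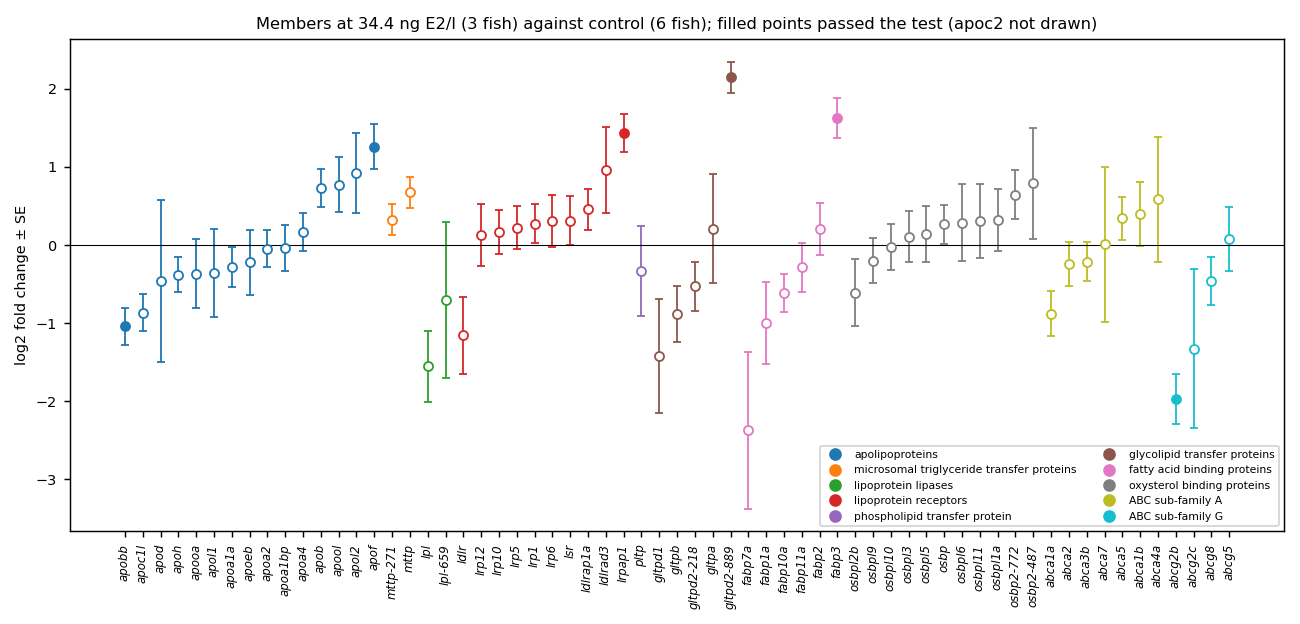
The log2 fold change at 34.4 ng E2/l (3 fish) against control (6 fish) is plotted for each gene, coloured by role, with its standard error. Filled points passed the test: *gltpd2-889* lies highest at 2.15, and *abcg2b* lies lowest of the filled points at -1.97; *apoc2*, with no count in the exposed fish, is not drawn.

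Among the apolipoproteins, the apolipoprotein B genes had values of opposite sign. Levels are in CPM, counts per 1000000 counts of effective library size. *apobb* had 9578 to 15423 CPM in the 6 controls, with a median of 12103, and 6010, 5541 and 6682 CPM in the 3 fish at 34.4 ng E2/l. All exposed fish lay below all controls, and the mean fell 2.06-fold (log2 fold change -1.04 ± 0.24 SE, adjusted p = 0.0321 by edgeR). *apob*, the second gene annotated as apolipoprotein B, had 2677 to 4752 CPM in controls, with a median of 4012, and 6084, 7261 and 5911 CPM in the exposed fish. Here each exposed fish exceeded the highest control, but the difference did not pass the test (log2 fold change 0.73 ± 0.24 SE, adjusted p = 0.157 by edgeR). The difference between the changes of these genes was not tested. The call of *apobb* was lost without TMM scaling (adjusted p = 0.102) and when any of 5 fish was left out: control 5 (adjusted p = 0.0706), control 6 (0.0577) or exposed fish 1 (0.217), 2 (0.179) or 3 (0.127), all by edgeR. Summed counts of 7 hepatocyte markers, among them the fibrinogen genes, moved the same way as *apobb*, from 60114 to 74714 CPM (unscaled) in controls to 49011 to 50726 at 34.4 ng E2/l. The part of this shift in the fall of *apobb* was not tested.

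The contigs of both genes show how far each sum rests on single sequences. All 27 contigs of *apobb*, which belong to 1 component of the assembly, had a negative log2 fold change, between -1.46 and -0.71, and 26 of them passed the test on their own. They share sequence and therefore do not count as separate evidence, and contigs of a phospholipase A2 gene lie in the same component, so that the division of reads between these genes is uncertain. The 4 contigs of *apob* came from 3 components and differed among themselves. Contig *comp30309_c0_seq1* of *apob* averaged 52.0 ± 17.7 CPM in the 6 controls and 138 ± 15.4 CPM (SD) in the 3 exposed fish, and it passed the test (log2 fold change 1.41, adjusted p = 0.0129 by edgeR). Contig *comp82532_c0_seq1*, which held most of the counts of *apob*, had a log2 fold change of 0.89 (adjusted p = 0.125 by edgeR). The other contigs of *apob*, both from 1 component, had log2 fold changes of 0.10 and 0.11, so that the contigs joined under this annotation had unlike values. The 4 contigs of *gltpd2-889* all passed the test, with log2 fold changes of 1.91 to 2.29. The 4 contigs of *abcg2b* had log2 fold changes of -3.26 to -1.11, and 1 of them passed the test.

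**Figure D2:**
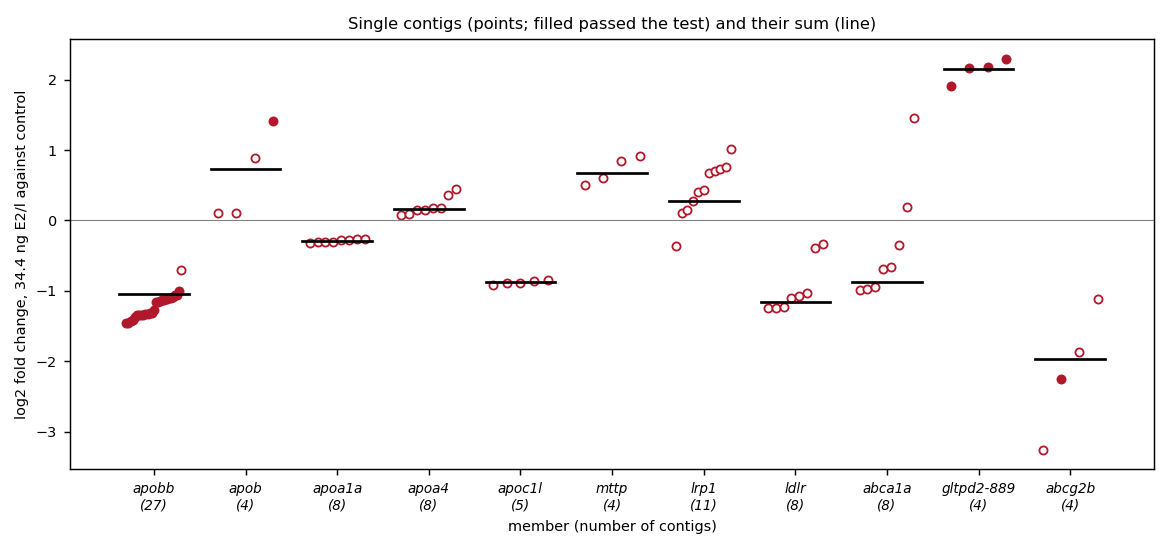
Points are the log2 fold changes of single contigs at 34.4 ng E2/l against control, filled where the contig passed the test, and the black line is the value of the summed gene; the number of contigs is given in parentheses. The 27 contigs of *apobb* all lie below 0, the 4 contigs of *apob* all above 0, and the contigs of *abca1a* fall on both sides.

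*apof*, apolipoprotein F, is known in mammals as an inhibitor of cholesteryl ester transfer between lipoproteins. It had 30.7 to 86.5 CPM in controls, with a median of 72.3, and 158, 198 and 121 CPM at 34.4 ng E2/l. Every exposed fish lay above every control, and the mean rose 2.40-fold (log2 fold change 1.26 ± 0.29 SE, adjusted p = 0.0345 by edgeR). This call was close to the threshold. It was lost in the fit of all 24 fish (adjusted p = 0.0601 by edgeR) and, when single fish were left out, without control 2, 3 or 6 or any one of the exposed fish, with adjusted p between 0.0614 and 0.204. The single contig of *apof* lies in an assembly component that also holds 3 other annotated genes.

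*apoc1l*, related to apolipoprotein C-I, a small exchangeable apolipoprotein, had 6599 to 10857 CPM in controls, with a median of 8365. The exposed fish had 4362, 5112 and 4301 CPM, below all controls, and the difference did not pass the test (log2 fold change -0.87 ± 0.24 SE, adjusted p = 0.0789 by edgeR). *apoc2*, the activator of lipoprotein lipase, was a rare transcript with 0 counts in all 3 exposed fish and at most 12 counts in a control. With a floor of 3 counts per library, its mean was at least 3.54-fold lower, but 1 control also had 0 counts and the test was not passed (adjusted p = 0.0748 by edgeR). DESeq2 called both *apoc1l* and *apoc2* lower, with adjusted p of 0.003 and 0.00384.

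*apoa1a*, *apoa2* and *apoa4* did not pass the test. *apoa1a*, the main structural apolipoprotein of high density lipoprotein, had 18404 to 30231 CPM in controls and 13923 to 21667 CPM at 34.4 ng E2/l (log2 fold change -0.28 ± 0.26 SE). *apoa2* had 31459 to 53720 CPM in controls and 37546 to 45176 CPM in the exposed fish, and its log2 fold change of -0.05 ± 0.24 SE turned positive, to 0.13, without TMM scaling. *apoa4* had 2104 to 3527 CPM in controls and 2179 to 3921 CPM in the exposed fish (log2 fold change 0.17 ± 0.24 SE). The groups overlapped for all 3 genes. *apoeb*, the ligand by which remnants are taken up, varied from 256 to 1037 CPM among controls alone. *apod*, a lipocalin that binds small lipophilic molecules, ranged from 7.74 to 548 CPM among the controls and from 10.6 to 255 CPM among the exposed fish, so that only a very large change could have been detected. In all, 5 of 16 tested apolipoproteins had a positive and 11 a negative log2 fold change, with a median of -0.25.

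*mttp*, the microsomal triglyceride transfer protein, had 70.6 to 98.7 CPM in controls, with a median of 88.9, and 152, 116 and 150 CPM at 34.4 ng E2/l. Each exposed fish exceeded the highest control, but the test was not passed (log2 fold change 0.68 ± 0.20 SE, adjusted p = 0.107 by edgeR). DESeq2 (adjusted p = 0.0285) and edgeR without TMM scaling (adjusted p = 0.0307) called it higher. The second gene with this annotation, *mttp-271*, had 27.0 to 36.8 CPM in controls and 36.7 to 43.4 CPM in the exposed fish (log2 fold change 0.33 ± 0.20 SE). Contigs of both genes share 1 assembly component, and how reads divide between them is uncertain.

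*lpl*, lipoprotein lipase, had 69.6 to 338 CPM in controls, with a median of 95.5, and 48.2, 43.4 and 44.9 CPM at 34.4 ng E2/l. The exposed fish lay below all controls, and the difference did not pass the test (log2 fold change -1.55 ± 0.45 SE, adjusted p = 0.1 by edgeR). Control 1 was the fish at 338 CPM: without it the log2 fold change was -1.03 and the test was passed (adjusted p = 0.0221 by edgeR). On all fish, DESeq2 (adjusted p = 0.0176) and edgeR's exact test (adjusted p = 0.041) also called *lpl* lower. The second gene of this annotation, *lpl-659*, which shares a component with *lpl*, ran from 0.969 to 68.3 CPM among controls.

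Of the 10 tested lipoprotein receptors and partners, 9 had a positive log2 fold change. The 10 include the Wnt co-receptors *lrp5* and *lrp6*. Their median was 0.29, beside 0.08 for all annotated genes. An unadjusted p below 0.05 by edgeR was found for 2 of the 10, beside 17.2% of annotated genes, and 1 passed the test. *lrpap1*, which escorts receptors of the low density lipoprotein receptor family through the endoplasmic reticulum, had 11.6 to 23.0 CPM in controls, with a median of 13.4. The exposed fish had 36.7, 41.0 and 46.4 CPM, all above the controls, and the mean rose 2.70-fold (log2 fold change 1.43 ± 0.24 SE, adjusted p = 0.0053 by edgeR). *ldlr*, the low density lipoprotein receptor, was the 1 receptor with a negative value (log2 fold change -1.16 ± 0.50 SE, adjusted p = 0.315 by edgeR). Its 6 controls ran from 227 CPM to 1795 CPM in control 1, the groups overlapped, and without control 1 the log2 fold change was -0.60.

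*gltpd2-889*, whose protein carries the fold of the glycolipid transfer protein, had the lowest p of the set. Its controls lay between 10.3 and 12.7 CPM, with a median of 11.8, and the exposed fish had 51.4, 59.5 and 45.6 CPM. The groups did not overlap, and the mean rose 4.44-fold (log2 fold change 2.15 ± 0.20 SE, adjusted p = 1.67e-05 by edgeR). The coefficient of variation of its controls, 8.32%, was the lowest among the 43 genes of the set with a control mean of at least 5 CPM, for which the median was 29.0%. The other gene of the same annotation, *gltpd2-218*, had 19.9 to 56.0 CPM in controls and 19.8 to 22.5 CPM in the exposed fish and did not pass the test (log2 fold change -0.53 ± 0.31 SE, adjusted p = 0.525 by edgeR). The remaining 3 glycolipid transfer genes, *gltpa*, *gltpb* and *gltpd1*, did not pass the test.

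*fabp3*, the fatty acid binding protein typical of heart and muscle, had 247 to 586 CPM in controls, with a median of 392, and 1172, 1158 and 1466 CPM at 34.4 ng E2/l. It rose 3.09-fold, with all exposed fish above all controls (log2 fold change 1.63 ± 0.26 SE, adjusted p = 0.00288 by edgeR). *fabp10a*, the liver basic type of fish, had 4612 to 8290 CPM in controls and 3564, 4581 and 3847 CPM in the exposed fish, which lay just below the lowest control (log2 fold change -0.61 ± 0.25 SE, adjusted p = 0.276 by edgeR). On the scale of the fit of all fish the groups overlapped, with 4501.5 CPM in control 2 and 4573.4 CPM in exposed fish 2. The 4 other fatty acid binding proteins, *fabp1a*, *fabp2*, *fabp7a* and *fabp11a*, did not pass the test, and *fabp3* was the only one of the 6 called.

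None of the 11 oxysterol binding proteins, which carry sterols and phosphoinositides between membranes, passed edgeR's test at 34.4 ng E2/l: 0 had an unadjusted p below 0.05, DESeq2 called none, and their log2 fold changes lay between -0.61 and 0.79. Among the ABC transporters, *abcg2b*, a relative of the mammalian exporter of drugs and sterol conjugates, had 7.57 to 12.5 CPM in controls, with a median of 9.05, and 2.84, 2.11 and 2.47 CPM at 34.4 ng E2/l. The exposed fish lay far below the controls, and the mean fell 3.93-fold (log2 fold change -1.97 ± 0.32 SE, adjusted p = 0.0033 by edgeR). The sterol exporters *abcg5* and *abcg8* did not pass the test. *abca1a*, which exports cholesterol to apolipoprotein A-I, had 221 to 623 CPM in controls, with the lowest value in control 4, and 265, 277 and 228 CPM in the exposed fish (log2 fold change -0.88 ± 0.29 SE, adjusted p = 0.156 by edgeR). Without control 4 this difference passed the test (log2 fold change -1.02, adjusted p = 0.0205 by edgeR).

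**Figure D3:**
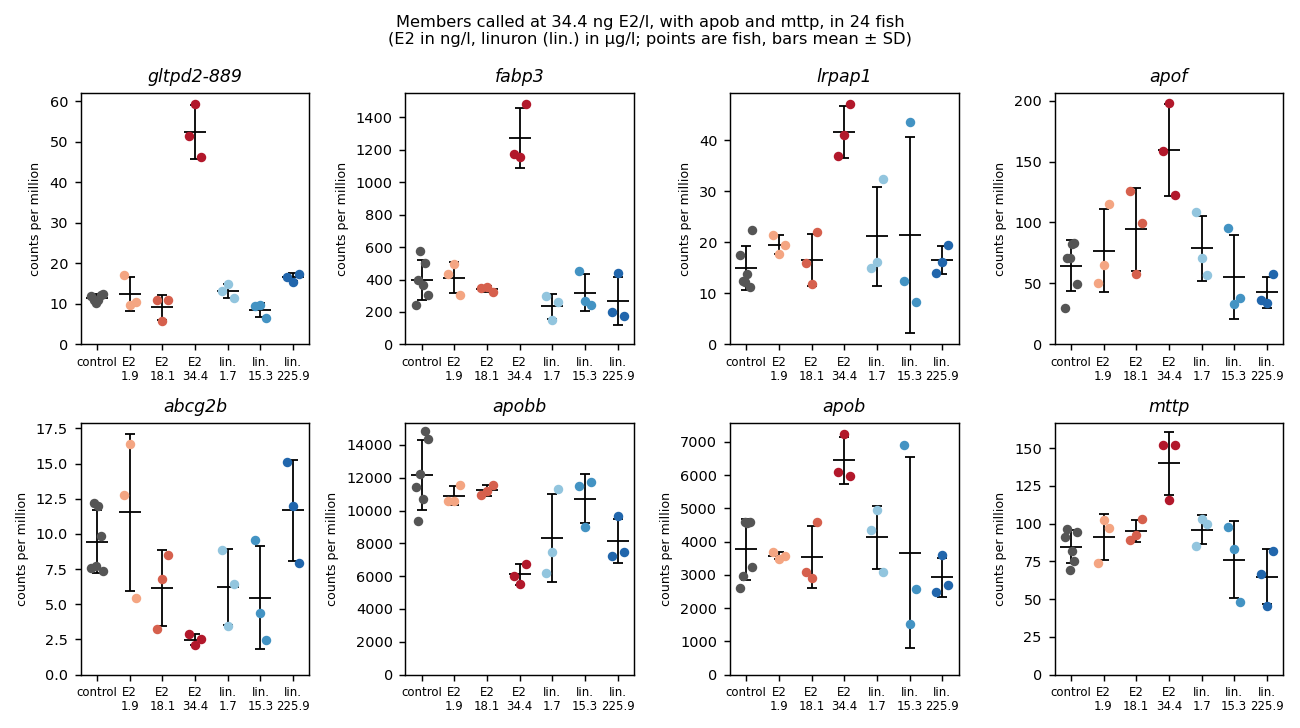
CPM in each of the 24 fish are plotted by group, with the mean and SD, on the scale of the fit of all fish. For *gltpd2-889*, *fabp3* and *mttp* the 3 fish at 34.4 ng E2/l lie above all 21 other fish; *apobb* and *abcg2b* are lowest in this group, with 1 other fish each reaching into its range.

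A list of 39 further annotations of lipoprotein assembly, remodelling, uptake and storage was read beside the set. Its 38 genes tested at 34.4 ng E2/l had a median log2 fold change of 0.02. Of these, 11 had an unadjusted p below 0.05, beside 17.2% of annotated genes. Only 1 passed the test, beside 2.75% of annotated genes. The gene that rose was *p4hb*, protein disulfide isomerase, which is also the small subunit of the microsomal triglyceride transfer protein complex and a general folding enzyme. It went from a mean of 624 ± 144 CPM in 6 controls to 1412 ± 59.8 CPM (SD) in 3 exposed fish (log2 fold change 1.18 ± 0.22 SE, adjusted p = 0.0104 by edgeR). Leaving out any one of the 3 exposed fish removed this call, so that 0 genes of the list passed. The remaining 37 genes did not pass, among them the lipoprotein assembly genes *sar1b* (log2 fold change 0.03) and *pla2g12b* (0.45), and *lcat*, which esterifies cholesterol in high density lipoprotein (-0.55).

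The group at 34.4 ng E2/l was compared directly with 3 other exposed groups in 1 fit of all 24 fish, in which 62 of the 66 genes could be tested. Against 18.1 ng E2/l, 2 genes passed the test, beside 0.544% of annotated genes: *gltpd2-889* (log2 fold change 2.51 ± 0.28 SE, adjusted p = 1.8e-05 by edgeR) and *fabp3* (1.90 ± 0.37 SE, adjusted p = 0.0154 by edgeR). Against 1.9 ng E2/l, the same 2 genes were higher and *abcg2b* was lower (log2 fold change -2.21 ± 0.48 SE, adjusted p = 0.0326 by edgeR), beside 0.845% of annotated genes. On this scale, *fabp3* had 324 to 355 CPM at 18.1 ng E2/l and 306 to 496 CPM at 1.9 ng E2/l, within the 241 to 575 CPM of controls. *gltpd2-889* had 10.9, 5.65 and 10.9 CPM at 18.1 ng E2/l and 17.2, 9.63 and 10.5 CPM at 1.9 ng E2/l, beside 10.1 to 12.3 CPM in controls. Both lower groups overlapped the controls, with 1 fish of each concentration below them and 1 fish at 1.9 ng E2/l above them. *apobb* had 10934 to 11581 CPM at 18.1 ng E2/l and the contrast of the highest concentration with this group did not pass the test (log2 fold change -0.88 ± 0.27 SE, adjusted p = 0.191 by edgeR). DESeq2 called *apobb* lower at 34.4 ng E2/l than at 18.1 ng E2/l (adjusted p = 0.0102) and than at 1.9 ng E2/l (adjusted p = 0.0143). When 1 fish at a time was left out, *gltpd2-889* passed throughout in these 3 contrasts. *fabp3* lost its call against 18.1 ng E2/l without exposed fish 3 or without any fish of that group, and against 1.9 ng E2/l without any of the 6 fish. The count fell to 1 gene in each of these cases except without fish 3 of either lower concentration, where *lpl* or *abcg2b* was also called. Fitting only the 6 fish of 34.4 and 1.9 ng E2/l raised the count from 3 to 7, and calls among annotated genes from 87 to 396.

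Against linuron at 225.9 µg/l, 5 genes passed the test, beside 1.7% of annotated genes. *gltpd2-889* (log2 fold change 1.66 ± 0.27 SE), *fabp3* (2.23 ± 0.38 SE), *apof* (1.90 ± 0.43 SE) and *mttp* (1.11 ± 0.26 SE) were higher under E2, and *abcg2b* was lower (-2.23 ± 0.48 SE). In this contrast *mttp*, which did not pass against control, had 140 ± 21.0 CPM at 34.4 ng E2/l and 64.9 ± 18.4 CPM under linuron (SD, n = 3 each, adjusted p = 0.0344 by edgeR). Its linuron fish had 66.9, 45.5 and 82.2 CPM, beside 69.2 to 96.4 CPM in controls on the same scale. Under linuron *apof* had 34.1 to 57.5 CPM, beside 29.9 to 83.4 CPM in controls. *fabp3* had 172 to 441 CPM, beside 241 to 575 CPM in controls. *apobb* did not pass here (log2 fold change -0.41 ± 0.27 SE, adjusted p = 0.651 by edgeR). It had 7222.5, 9680.3 and 7473.1 CPM at 225.9 µg linuron/l and 6189.5, 7485.8 and 11306 CPM at 1.7 µg linuron/l. Controls had 9349.5 to 14872 CPM on the same scale. Only *gltpd2-889* and *fabp3* passed in the contrast with 225.9 µg linuron/l when any of the 6 fish was left out, with counts of 2 to 4. Fitting only these 6 fish called 9 genes, while calls among annotated genes went from 175 to 572.

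At the lower E2 concentrations no gene of the set passed edgeR's test. At 18.1 ng E2/l, 0 of 65 genes and 0% of annotated genes passed, and DESeq2 called none of the 65. An unadjusted p below 0.05 was found for 2 of the 65, beside 2.44% of annotated genes. At 1.9 ng E2/l, 0 of 63 genes and 0% of annotated genes passed. Here 2 of the 63 had an unadjusted p below 0.05, beside 4.85% of annotated genes. DESeq2 called 1 gene there, *apoa4*, an apolipoprotein of triglyceride-rich particles. *apoa4* had 669, 1661 and 859 CPM at 1.9 ng E2/l, all below the controls of that table at 1982 to 3347 CPM. Its log2 fold change was -1.30 ± 0.32 SE, with adjusted p = 1 by edgeR and 0.0392 by DESeq2. At 18.1 ng E2/l, 1 fish had 498 CPM and the others had 2403 and 2750 CPM, so that the fish of this group spread beyond the range of controls.

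Under linuron, an inhibitor of photosynthesis in plants that is known as an antagonist of the androgen receptor in vertebrates, no gene of the set passed edgeR's test at any concentration. At 225.9 µg/l, 0 of 65 genes passed, beside 0.374% of annotated genes, and 10 of the 65 had an unadjusted p below 0.05, beside 11.0% of annotated genes. *apoa4* came closest, with 717, 1449 and 323 CPM against 2076 to 3441 CPM in the controls of that table. All exposed fish lay below all controls (log2 fold change -1.72 ± 0.39 SE, adjusted p = 0.120 by edgeR). DESeq2 (adjusted p = 0.00132) and edgeR's exact test (adjusted p = 0.0178) called *apoa4* lower, as did the main test without fish 2 of the group (adjusted p = 0.0227 by edgeR). *gltpd2-889*, the gene with the lowest p at 34.4 ng E2/l, had 16.3, 15.2 and 16.9 CPM, just above the 10.1 to 12.4 CPM of controls (log2 fold change 0.49 ± 0.22 SE, adjusted p = 0.558 by edgeR). *mttp-271* had 23.6, 13.4 and 23.1 CPM, below the 26.1 to 36.2 CPM of controls (log2 fold change -0.63 ± 0.25 SE, adjusted p = 0.467 by edgeR). Of the lipid list read beside the set, 0 of 41 genes passed edgeR's test and 14 had an unadjusted p below 0.05. DESeq2 called 3 genes of this list, and edgeR without control 4 called 1. Calls among all annotated genes went from 41 in the main fit to 261 by DESeq2 and to 86 without control 4.

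At 15.3 µg linuron/l, 0 of 63 genes and 0% of annotated genes passed edgeR's test, and DESeq2 called none of the 63. An unadjusted p below 0.05 was found for 2 of the 63, beside 5.56% of annotated genes. The lowest p belonged to *apol2*, apolipoprotein L2, with 2.45, 7.91 and 8.87 CPM against 0.809 to 2.58 CPM in controls (log2 fold change 1.94 ± 0.47 SE, adjusted p = 0.950 by edgeR). At 1.7 µg linuron/l, 0 of 65 genes and 0% of annotated genes passed, and DESeq2 called none of the 65. An unadjusted p below 0.05 was found for 4 of the 65, beside 7.06% of annotated genes. *apoc2* again had 0 counts in all 3 fish there (adjusted p = 0.516 by edgeR), and *fabp3* had 297, 143 and 260 CPM, overlapping the 247 to 584 CPM of controls (log2 fold change -0.80 ± 0.32 SE, adjusted p = 0.718 by edgeR).

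**Figure D4:**
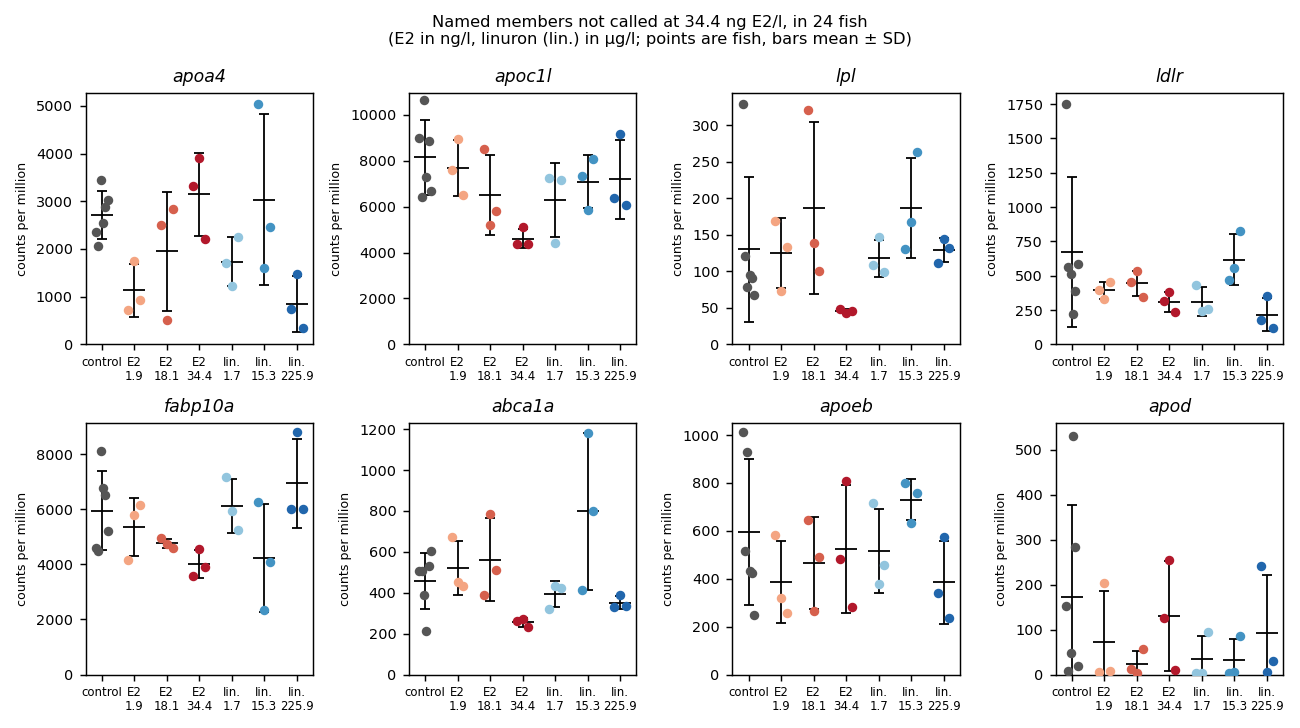
CPM in each of the 24 fish are plotted for 8 genes that did not pass at 34.4 ng E2/l, with group means and SD. *apoa4* is low in all fish at 1.9 ng E2/l and 225.9 µg linuron/l, and some fish of other exposed groups also lie below all controls. *lpl* is lowest in the 3 fish at 34.4 ng E2/l, and control 1 stands out for *lpl* and *ldlr*.

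**Figure D5:**
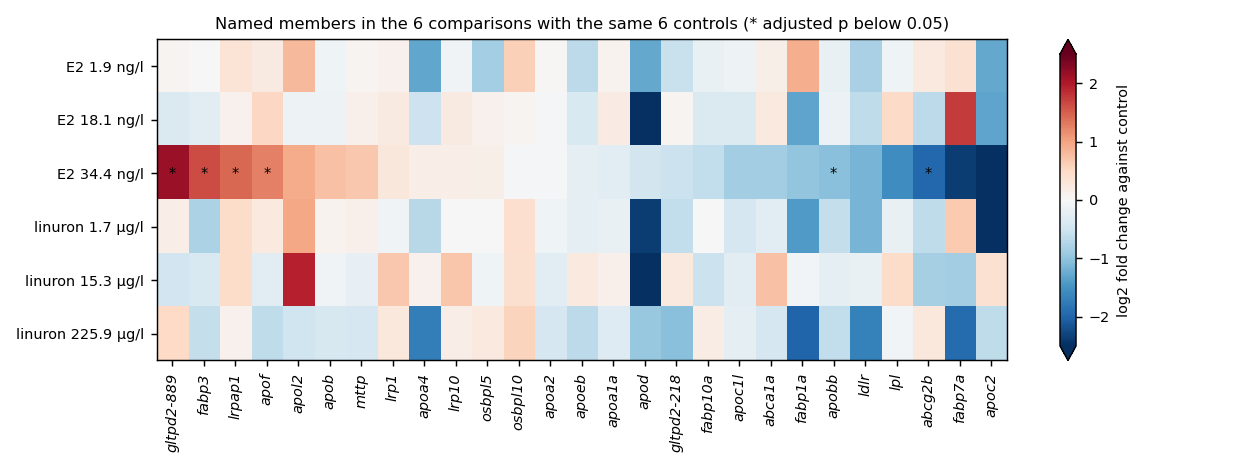
Colour gives the log2 fold change of 27 named genes against the same 6 controls in the 6 exposures, from -2.5 or less (blue) to 2.5 or more (red), with an asterisk where the test was passed. The 6 asterisks all lie in the row of 34.4 ng E2/l.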

How the data were processed

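Liver RNA of 24 male trout was made into TruSeq libraries and sequenced by Illumina, and the authors assembled the reads without a genome and mapped them back with Bowtie2 2.1.0, reporting 1 hit per read, and SAMtools 0.1.18. The deposited counts are whole reads per contig, in 1 table for each exposure with the same 6 controls. Every deposited contig had at least 1.03 CPM in at least 3 fish, so that rarer contigs are not covered. The deposited edgeR fold changes, p-values and direction calls were not used. Reads of near-identical contigs cannot be divided with certainty, and contig lengths were not used, so that levels were not compared between genes.

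Counts were summed per Ensembl identifier (first hit among the zebrafish, human or mouse, and other fish columns), and contigs without annotation stayed in the fit. The main test was edgeR 4.0.16 (R 4.3.3) with TMM scaling, at least 1 count in at least 3 fish, a quasi-likelihood test, and Benjamini-Hochberg adjustment over all features at 0.05. The standard error is the size of the log2 fold change divided by the square root of the F statistic. Direct contrasts used 1 fit of 24 fish in 7 groups, on the 50282 contigs listed in all 6 tables. Alternatives were DESeq2 1.42.0, other scalings, filters and tests, single contigs, annotated genes only, a replicate block, and leaving out each fish. The edgeR and DESeq2 fits were also run on simulated counts. The other steps, such as the choice and summing of genes, were not tested on simulated data.

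Named genes were those called in any comparison or contrast, those the study names, the 10 with the most counts in controls, the 5 of lowest p in each direction at 34.4 ng E2/l, the 3 of lowest p in each other comparison, and *mttp* and *lpl*. The genes and lists were chosen with earlier results of these data known. Sequences were not used here.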

Additional observations from a re-analysis of the deposited data

Results flagged for a closer look

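Control 1 lay apart from the other 5 control fish in 3 of the 27 named genes, each by a gap larger than Dixon's 95% limit for 6 values. Its value was 1795 CPM for *ldlr*, where the next control had 604 CPM. It was 338 CPM for *lpl*, where the next control had 123 CPM, and 56.0 CPM for *gltpd2-218*, where the next control had 31.7 CPM. Chance flags about 1 in 20 groups of values. Without control 1, *lpl* passed the test at 34.4 ng E2/l, and the log2 fold change of *ldlr* was -0.60 in place of -1.16.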

How the results depend on the processing

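At 34.4 ng E2/l against control, 6 genes were called. Leaving out 1 fish at a time gave 3 to 8, and DESeq2 gave 10. The replicate block gave 4, without *apobb* (adjusted p = 0.234 by edgeR) and *apof* (0.0593). This block joins fish by their number, although the labels do not pair them. Controls whose number no exposed fish carries add nothing to that contrast. The number of genes called at 34.4 ng E2/l was within 1.5 times of 6 under the other alternatives. The filters could not change a value, since all deposited contigs passed them. Without TMM scaling the median log2 fold change of annotated genes was 0.28 in place of 0.08, 3 of 64 genes changed direction, and the split of calls went from 4 higher and 2 lower to 5 higher and 1 lower. Of the lipid list, 1 gene was called: DESeq2 gave 4, edgeR's exact test 2, single contigs 2 and the replicate block 0, and leaving out 1 fish gave 0 to 2. In 2 comparisons with 0 called, alternatives called 1 gene, *apoa4*: DESeq2 at 1.9 ng E2/l, and DESeq2 and the exact test at 225.9 µg linuron/l, where leaving out 1 fish gave 0 to 1. The comparisons at 18.1 ng E2/l and at 15.3 and 1.7 µg linuron/l stayed at 0 under every alternative run. Against 18.1 ng E2/l, DESeq2 called 4 genes in place of 2, and leaving out 1 fish gave 1 to 2. Against 1.9 ng E2/l, 3 genes became 7 with only the 6 fish compared, 5 with the replicate block on those fish, and 1 to 2 when 1 fish was left out. Against 225.9 µg linuron/l, 5 genes became 8 by DESeq2, 9 with only the 6 fish, 10 with the replicate block, and 2 to 4 when 1 fish was left out. Calls among all annotated genes moved as well, at 34.4 ng E2/l against control from 304 to 667 by DESeq2 and to 222 with the replicate block. The cause of these differences was not tested.

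The labels number the fish but do not pair them. At 34.4 ng E2/l, the deviations of same-numbered exposed and control fish from their group means had correlations of -0.03, -0.03 and -0.04 across 9704 genes. In the other exposed groups such correlations ran from -0.60 (fish 1 at 15.3 µg linuron/l) to 0.36 (fish 1 at 18.1 ng E2/l). Of the log2 fold changes of named genes at 34.4 ng E2/l, 445 values under alternatives kept their direction and side of the threshold, 16 lost a call, 10 gained one and 15 changed direction. The last were all of genes that did not pass the test; the main values were -0.05 for *apoa2*, -0.02 for *osbpl10*, -0.46 for *apod*, -0.22 for *apoeb* and 0.17 for *apoa4*. *apoa2* was at 0.13 without TMM scaling and 0.15 with the replicate block, and -0.13 to 0.030 when 1 fish was left out. *osbpl10* was at 0.18 without TMM scaling, 0.024 in the fit of 24 fish, and -0.29 to 0.13 when 1 fish was left out. *apod* was at 0.37 with the replicate block and -1.39 to 0.31 when 1 fish was left out. Leaving out 1 fish gave -0.027 to 0.37 for *apoa4* and -0.68 to 0.082 for *apoeb*. Depth limits the rare genes: 12 counts was the highest value of *apoc2* in a control.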

Other observations

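Some genes of lipoprotein export, *sar1b*, *pla2g12b*, *surf4* and *mttp-271*, lay low under linuron at 225.9 µg/l. This pattern was picked after the values were seen, and none of the genes named here passed edgeR's test on all fish. *sar1b*, the GTPase of vesicles that carry lipoprotein out of the endoplasmic reticulum, had 289 CPM on average in controls and 167 CPM under linuron, with all 3 exposed fish below all controls (log2 fold change -0.79 ± 0.21 SE). *pla2g12b*, known in mice and zebrafish for its part in lipoprotein secretion, had 91.8 and 50.5 CPM (-0.86 ± 0.22 SE), and *surf4*, a cargo receptor of the same route, had 30.2 and 16.3 CPM (-0.88 ± 0.29 SE). The groups did not overlap in *sar1b*, *pla2g12b*, *surf4* or *mttp-271*, which were picked with their values known. They did overlap in *mttp* and in *tm6sf2*, another gene of the lipid list (log2 fold change -1.14 ± 0.48 SE). On the scale of the fit of all fish, *mttp* had 45.5 to 82.2 CPM under linuron and 69.2 to 96.4 CPM in controls. Of the 41 genes of the lipid list tested in this comparison, 15 had a positive log2 fold change. In the chosen set the groups did not overlap in 3 of 65 genes, beside 6.56% of annotated genes in this comparison. At 34.4 ng E2/l the log2 fold changes of *sar1b*, *pla2g12b* and *surf4* were 0.03, 0.45 and 0.03.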
